A study of Mus musculus with 12 samples.

Results

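Mitochondrial fatty acid oxidation was followed through 32 genes, taken as a fixed list by symbol, of the 38924 genes in the count table. The list holds the carnitine entry step and its control, the acyl-CoA dehydrogenases, the hydratases, dehydrogenases and thiolases that complete each cycle, the electron transfer flavoproteins, the auxiliary enzymes for double bonds, related hydratase-domain proteins and mitochondrial acyl-CoA synthetases. All 32 members passed the filter on low counts and were tested among 14870 genes. RNA was sequenced from interscapular brown fat, a depot between the shoulder blades that burns fuel to make heat, of 12 mice. All were wild-type C57BL/6J animals, 14 weeks old when sampled, and differed by the ambient temperature of their last 4 weeks. Of these, 4 lived at 30 °C, which is thermoneutral for a mouse, 4 at 22 °C, which is mild cold, and 4 at 6 °C, which is severe cold. The questions are how the enzymes of fat burning in the depot differed between these temperatures, and whether the step from 22 to 6 °C repeated the step from 30 to 22 °C.

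Long-chain fatty acids enter mitochondria as carnitine esters: a carnitine palmitoyltransferase of the outer membrane makes the ester, a carrier moves it inwards, and a second transferase on the inner membrane restores the acyl-CoA. Beta-oxidation then shortens the chain in repeated cycles of dehydrogenation, hydration, a second dehydrogenation and thiolytic cleavage, with separate enzymes for long, medium and short chains. The electrons of the first dehydrogenation pass through the electron transfer flavoprotein to the respiratory chain. In brown adipocytes these electrons feed a chain that uncoupling protein turns towards heat.

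Library totals lay between 18290162 and 32513051 counts, except 86438386 in 22 °C mouse 3, which lowers the counting error of that library only. That library stood apart from its group, with Spearman correlations of 0.980 to 0.982 to the other 22 °C libraries against 0.987 to 0.988 among those, and its code (8846) lies apart from 7509 to 7520 in the rest. Levels are given as CPM, the count of a gene scaled to a fixed library total, after TMM scaling, whose factors were 1.11 to 1.23 at 30 °C and 0.870 to 0.982 in the other libraries. A pair of the 30 °C libraries, called mice A and B, was assigned to that temperature by the letter of its column name, since its column numbers match no sample title of that group, and which of the labelled mice they are is not known. Low Spearman correlations also occurred outside the 22 °C group. They were 0.977 and 0.979 for 30 °C mouse 1 with mice A and B, and 0.983 for 6 °C mouse 3 with 6 °C mice 1 and 4. Mouse B held the lowest value of its group for 29 of the 32 members, and 22 °C mouse 3 for 19. The highest value of the group lay in 6 °C mouse 3 for 24 members and in 30 °C mouse 1 for 19. Brown adipocyte markers, at 11607 to 13756 summed CPM at 30 °C, 18334 to 21249 at 22 °C and 25086 to 27589 at 6 °C, were high in every library. Of 14 such markers, 9 were higher and 1 lower at 6 °C than at 30 °C, while 7 of 8 fibroblast markers, 7 of 10 macrophage markers, 5 of 8 endothelial markers and 5 of 5 tested T cell markers were lower and none of these higher. At 22 °C against 30 °C the lower counts were 6 of 8 fibroblast, 9 of 10 macrophage, 6 of 8 endothelial and 5 of 5 T cell markers, again with none higher. Of 4 tested white adipocyte markers, 3 were lower and none higher at 6 °C, and 1 was higher and 1 lower at 22 °C, both against 30 °C. From 22 to 6 °C, 4 of 10 macrophage markers were higher and 1 lower, and 2 of 8 endothelial markers were higher and 1 lower. At that step 4 of 8 fibroblast and 3 of 4 white adipocyte markers were lower and none higher. Of the 14 brown adipocyte markers 3 were higher and 3 lower there, and no T cell marker was called. These counts stand beside shares of all tested genes of 25.3% higher and 31.5% lower at 6 °C against 30 °C. The shares were 21.8% and 22.8% at 22 °C against 30 °C. From 22 to 6 °C they were 16.9% and 17.4%, or 34.2% in either direction. In bulk tissue fewer cells of a type and less RNA per cell cannot be told apart, and the part of these marker shifts in the members' levels was not tested.

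Most members were higher in either cold group than at thermoneutrality, but severe cold did not extend the rise evenly. At 22 °C against 30 °C, 25 of 32 members rose and 1, Cpt1a, fell (edgeR's quasi-likelihood test, Benjamini-Hochberg adjusted p under 0.05), where 21.8% of all tested genes rose and 22.8% fell, or 44.6% in either direction. At 6 °C against 30 °C, 20 members rose and 6 fell, against 25.3% and 31.5% of all tested genes, or 56.8% in either direction. From 22 to 6 °C the list divided, with 10 members higher, 8 lower and 14 not called, where 16.9% of all tested genes were higher and 17.4% lower, or 34.2% in either direction. The median log2 fold change of the members was 0.57 at 22 °C and 0.57 at 6 °C, both against 30 °C, and 0.03 between 22 and 6 °C. Without mice A and B the counts were 22 higher and 1 lower at 22 °C against 30 °C, 18 and 6 at 6 °C against 30 °C, and 13 and 8 at 6 °C against 22 °C. The calls lost without them were Acadsb, Hadhb and Echdc2 at 22 °C and Cpt1b and Hadh at 6 °C, all against 30 °C (edgeR adjusted p 0.081 to 0.168), and those gained were Acadvl, Echdc1 and Decr1 between 22 and 6 °C (adjusted p 0.0118 to 0.0351). Over all tested genes the medians with all libraries were -0.02, -0.11 and -0.03. A test over all 3 temperatures called 29 members, with Cpt1b (adjusted p = 0.0579), Etfa (0.146) and Slc22a5 (0.187) the exceptions, against 65.7% of all tested genes.

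The sum of the 32 members was also higher in both cold groups, and similar between them. It came to 16398, 15543, 15060 and 12040 CPM in the 30 °C mice 1, 2, A and B, to 23264, 23260, 20234 and 21892 CPM in the 22 °C mice 1 to 4, and to 21968, 22176, 24796 and 23007 CPM in the 6 °C mice 1 to 4. Every cold mouse lay above every 30 °C mouse, and the 22 and 6 °C mice overlapped. Between 22 and 6 °C the sum joined abundant members that moved in opposite directions. Mean CPM went from 2229 to 3677 for Hadha, and from 2376 to 1519 for Acaa2. The members took 1.48 to 1.84% of all counts at 30 °C, 1.99 to 2.22% at 22 °C and 2.08 to 2.16% at 6 °C. The 4 mice of a temperature did not overlap the 4 of the other for 25 members that were higher and 1 that was lower at 22 °C against 30 °C, where 18.9% and 20% of all tested genes were separated in these directions. At 6 °C against 30 °C the counts were 19 higher and 3 lower, against 24.1% and 27.4% of all tested genes, and at 6 °C against 22 °C they were 13 and 8, against 17.8% and 17.1%.

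**Figure D1:**
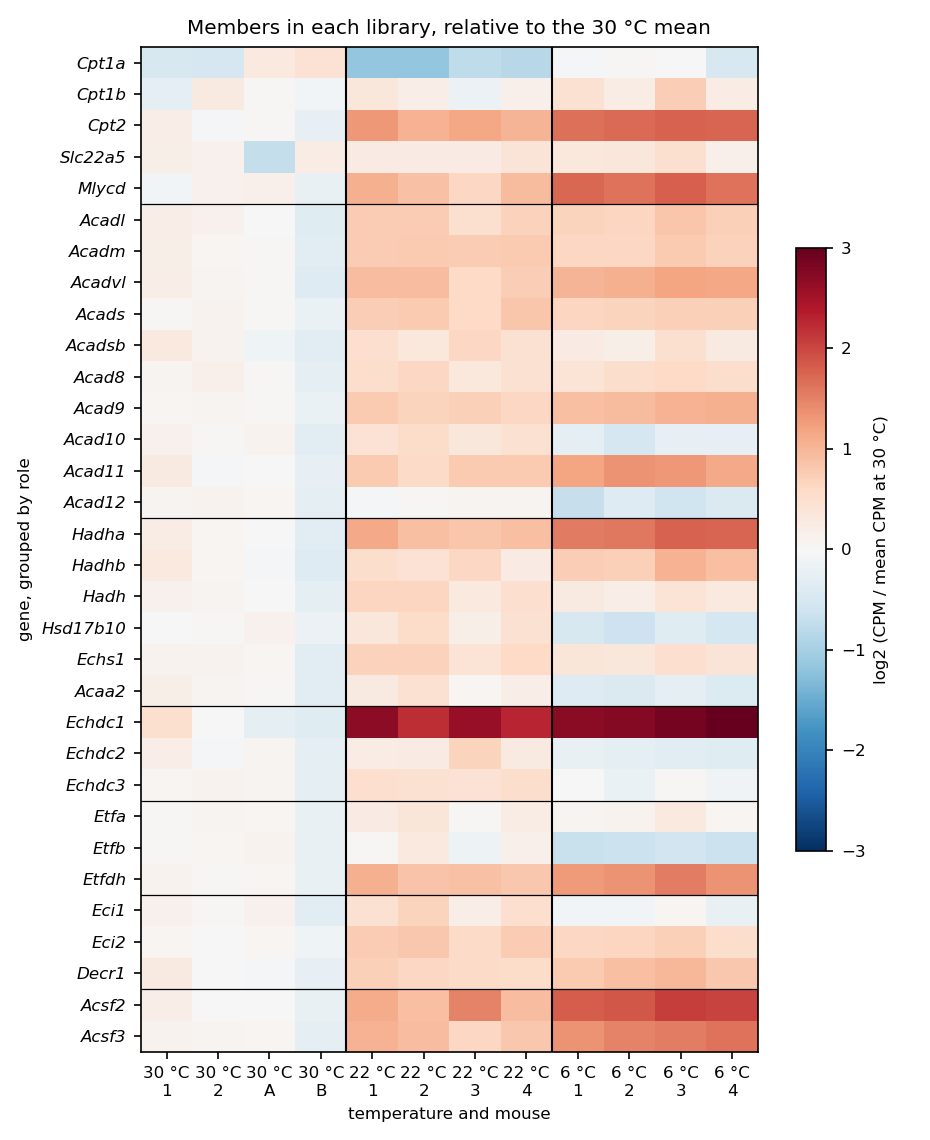
Each cell is the log2 ratio of a member's CPM in 1 library to its mean CPM at 30 °C, with red for higher and blue for lower, libraries in columns by temperature and mouse, and genes in rows by role. Echdc1 is the strongest red in the cold columns, and the 6 °C columns mix red rows such as Cpt2 and Hadha with blue rows such as Etfb and Hsd17b10.

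At the carnitine entry step the inner-membrane enzyme rose at both temperature steps while the outer-membrane enzymes did not. Cpt2 (ENSMUSG00000028607, GRCm38 chr4:107903981-107923610, minus strand), which restores the acyl-CoA inside the mitochondrion, stood at 291, 244, 257 and 213 CPM at 30 °C, at 618, 520.3, 563 and 512 CPM at 22 °C and at 789.6, 812, 853 and 845 CPM at 6 °C. No mouse of a temperature overlapped another temperature. The means were 251 ± 32.1, 553 ± 48.6 and 825 ± 29.4 CPM (SD, n = 4 each), and the edgeR log2 fold changes were 1.14 (SE 0.10, adjusted p = 7.79e-06) for 22 against 30 °C and 0.58 (SE 0.10, adjusted p = 0.000798) for 6 against 22 °C.

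Mlycd, the decarboxylase that removes malonyl-CoA, an inhibitor of the outer-membrane enzyme, climbed in the same way. It measured 67.3, 77.5, 79.8 and 61.1 CPM at 30 °C, 150.5, 132, 110.0 and 138 CPM at 22 °C, and 237, 222, 248.8 and 221 CPM at 6 °C, with no overlap between temperatures. It rose by 0.89 (SE 0.11, edgeR adjusted p = 4.81e-05) and then by 0.81 (SE 0.11, adjusted p = 0.000151) on the log2 scale.

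Cpt1a (ENSMUSG00000024900, chr19:3322334-3385733, plus strand), the outer-membrane form best known from liver, was the single member lower at 22 °C than at 30 °C and higher again at 6 °C. Its values were 20.02, 19.8, 34.0 and 37.6 CPM at 30 °C, 12.5, 12.5, 16.4 and 15.7 CPM at 22 °C, and 26.6, 28.4, 27.6 and 20.1 CPM at 6 °C. All 22 °C mice lay below all others, and the 30 °C group was split, with mice A and B high. The log2 fold change was -0.96 (SE 0.21, edgeR adjusted p = 0.00323) for 22 against 30 °C and 0.84 (SE 0.21, adjusted p = 0.0105) for 6 against 22 °C, and 6 and 30 °C were not called apart (-0.12, adjusted p = 0.649). Macrophage markers varied alongside: the 10 markers, 9 of them lower and none higher at 22 °C than at 30 °C, summed to 277, 257, 634 and 728 CPM in the 30 °C mice 1, 2, A and B, to 78.3 to 119 CPM at 22 °C and to 134 to 235 CPM at 6 °C. Without mice A and B the Cpt1a difference for 22 against 30 °C was -0.47 (adjusted p = 0.037), and the part of the markers in it was not tested.

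Cpt1b (ENSMUSG00000078937, chr15:89416405-89425863, minus strand), the form typical of muscle and brown fat, changed little. It stood at 30.5, 45.2, 38.1 and 35.003 CPM at 30 °C, 47.0, 43.1, 32.9 and 41.5 CPM at 22 °C, and 50.9, 43.1, 62.3 and 43.2 CPM at 6 °C, and the groups overlapped. At 6 °C against 30 °C it rose by 0.42 on the log2 scale (SE 0.15, edgeR adjusted p = 0.0277), a call lost without any 1 of 30 °C mouse 1, 30 °C mouse B, 6 °C mouse 1 or 6 °C mouse 3 (adjusted p 0.0529 to 0.0923). The predicted gene Gm44502 covers 81.4% of the Cpt1b exonic bases on the same strand and is not among the genes of the count table. Skeletal muscle markers, none of 16 called in any comparison, summed to 1008 to 5398 CPM at 30 °C, 1004 to 3834 at 22 °C and 101 to 1988 at 6 °C, and with their level as a covariate the Cpt1b difference was 0.26 (adjusted p = 0.142). Slc22a5, the plasma membrane carnitine transporter, was not called by edgeR in any of the 3 comparisons (DESeq2 called 6 against 30 °C, adjusted p = 0.0482), with means of 45.9 ± 12.2, 55.7 ± 2.88 and 57.6 ± 5.30 CPM. Its 30 °C spread came from mouse A at 27.8 CPM, beside 50.5 to 53.6 CPM in the other 30 °C mice.

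**Figure D2:**
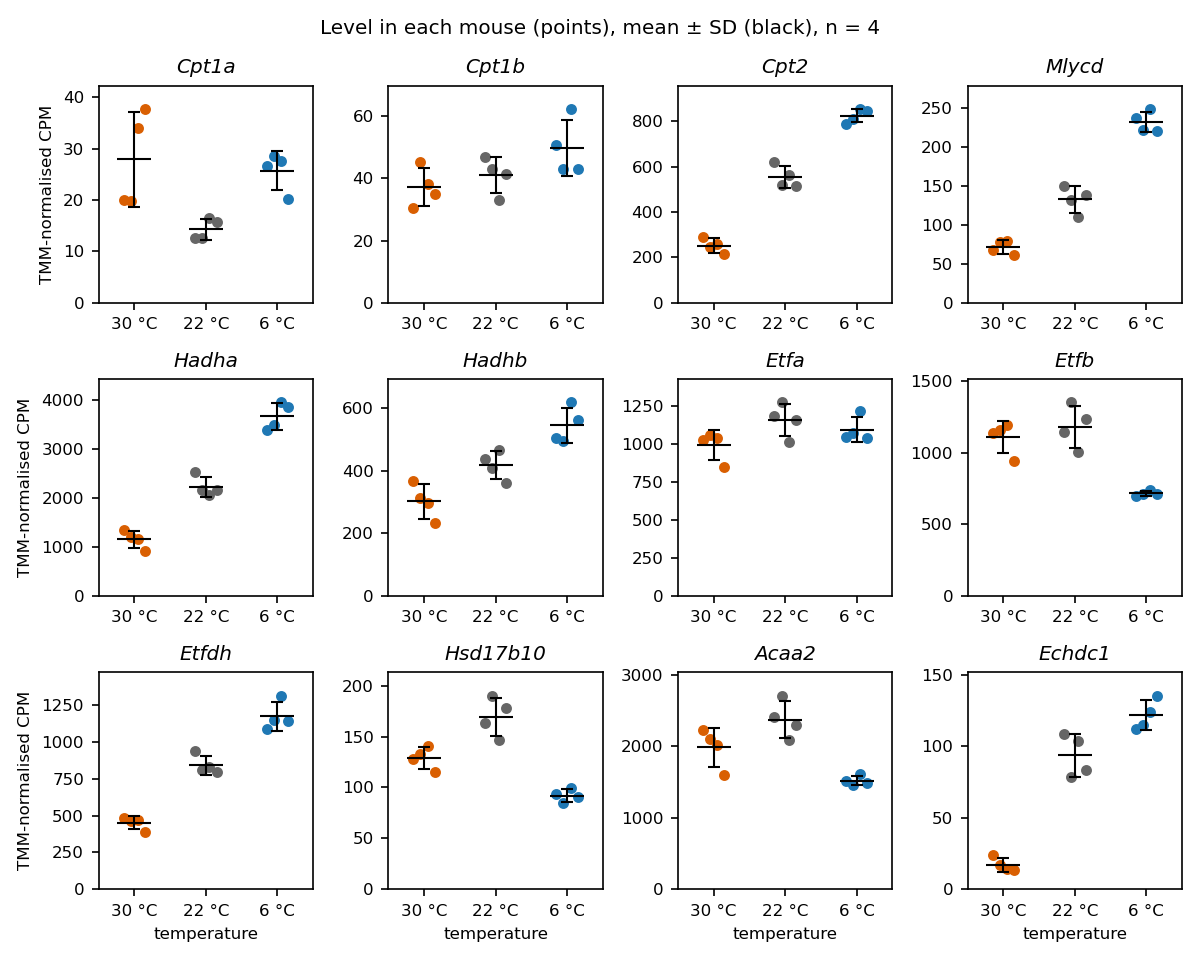
Each panel plots the TMM-normalised CPM of 1 member in every mouse (points, by temperature) with the mean and SD of 4 mice in black, on axes that start at 0. Cpt2, Mlycd, Hadha and Etfdh step up at both changes of temperature without overlap, Etfb, Hsd17b10 and Acaa2 are lowest at 6 °C, and Cpt1a is lowest at 22 °C.

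Among the 10 acyl-CoA dehydrogenases, which open each cycle, 9 rose at 22 °C against 30 °C and none fell. At 6 °C against 22 °C, 2 rose, 2 fell and 6 were not called. The shares of all tested genes were 21.8% higher and 22.8% lower at the first step, and 16.9% and 17.4% at the second. At the second step 40% of these 10 were called in either direction, near the 34.2% of all tested genes. Acadvl (chr11:70010183-70015411, minus strand), for very long chains, measured 901, 826, 796 and 600.1 CPM at 30 °C, 1474, 1479.6, 1189.5 and 1299 CPM at 22 °C, and 1587, 1638, 1787 and 1742 CPM at 6 °C, so that the temperatures did not overlap. It rose by 0.80 (SE 0.12, edgeR adjusted p = 0.000216) at the first step, and the second difference of 0.31 (SE 0.12) was not called (adjusted p = 0.0602). The same difference was called in 9 of 27 alternatives. Among them were the edgeR fits without 30 °C mouse 1 or without mouse B (adjusted p 0.0151 to 0.0485). Others were the edgeR fit of only the 8 libraries compared (adjusted p = 0.0198) and DESeq2 (adjusted p = 0.0213). Of its exonic bases 42.9% lie under Dvl2 on the opposite strand, a gene at 13.3 to 15.98 CPM that was not called. Whether counting used strand is not given here, and reads of neighbours on opposite strands therefore cannot be told apart.

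The long, medium and short chain enzymes reached their level at 22 °C and stayed there. Acadl, for long chains, averaged 1973 ± 316 CPM at 30 °C, 3159 ± 269 CPM at 22 °C and 3227 ± 202 CPM at 6 °C. Acadm, for medium chains, averaged 1241 ± 177, 2109 ± 18.7 and 1988 ± 118 CPM. Acads, for short chains, averaged 347 ± 30.8, 580.3 ± 37.7 and 557 ± 12.6 CPM. These 3 rose by 0.68 to 0.76 on the log2 scale at 22 °C, and their differences from 22 to 6 °C lay between -0.09 and 0.03 (edgeR adjusted p 0.541 to 0.862).

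The dehydrogenases of branched chains rose less. Acadsb, which acts on the short branched chain of isoleucine, went from 235 ± 44.7 to 328 ± 30.0 CPM at 22 °C (log2 fold change 0.48, edgeR adjusted p = 0.007, and 0.28 with adjusted p = 0.081 without mice A and B) and stood at 288 ± 26.7 CPM at 6 °C. Acad8, the isobutyryl-CoA dehydrogenase of valine breakdown, averaged 73.6 ± 9.19, 103 ± 9.24 and 105 ± 5.43 CPM and rose by 0.48 (edgeR adjusted p = 0.00115) at 22 °C. At 6 °C against 30 °C Acad8 rose by 0.51 (adjusted p = 0.000534), and Acadsb differed by 0.29 (adjusted p = 0.0591), a difference called without 30 °C mouse 1 or without 22 °C mouse 3 (adjusted p 0.00968 to 0.0463).

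The remaining members of the family split in direction. Acad9, also an assembly factor of respiratory complex I, rose at both steps, at 45.8 ± 3.93, 74.0 ± 3.5 and 91.4 ± 4.69 CPM. Acad11 did so as well, at 179.7 ± 26.7, 299 ± 19.7 and 425 ± 29.1 CPM (log2 fold changes 0.73 and then 0.51, edgeR adjusted p = 0.000131 and 0.00232). Acad10 rose and then fell, at 50.3, 47.5, 49.98 and 37.1 CPM at 30 °C, 62.0, 67.5, 58.1 and 63.3 CPM at 22 °C and 38.3, 32.7, 39.2 and 39.1 CPM at 6 °C. Every 22 °C mouse was above every other mouse, and the fall of Acad10 to 6 °C was -0.75 on the log2 scale (SE 0.10, edgeR adjusted p = 0.000166). Its call of -0.31 at 6 °C against 30 °C was lost without 30 °C mouse A or without 6 °C mouse 2 (adjusted p 0.0505 to 0.0622). Acad12, the neighbour and relative of Acad10 on chromosome 5, whose share of reads matching both genes is not known here, was not called at 22 °C (0.04, adjusted p = 0.759) and fell by 0.56 from 22 to 6 °C (adjusted p = 0.00101), with means of 36.7 ± 4.44, 37.7 ± 1.69 and 25.6 ± 2.61 CPM.

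The trifunctional protein, which carries out the last 3 reactions on long chains, was called higher at both steps in both subunits, with the calls of the beta subunit less stable. Hadha (ENSMUSG00000025745, chr5:30118304-30155162, minus strand), the alpha subunit with hydratase and long-chain dehydrogenase activity, measured 1342, 1199, 1165 and 916 CPM at 30 °C, 2527, 2175, 2055 and 2159.8 CPM at 22 °C, and 3393, 3488, 3958 and 3870.4 CPM at 6 °C. Hadhb (ENSMUSG00000059447, chr5:30155248-30184593, plus strand), the beta subunit with thiolase activity, measured 368, 312, 296 and 233 CPM at 30 °C, 437, 408, 465 and 361 CPM at 22 °C, and 505, 496, 618 and 561 CPM at 6 °C. Hadha did not overlap between temperatures, whereas Hadhb overlapped between 30 and 22 °C. The log2 fold changes of Hadha were 0.95 (SE 0.12, edgeR adjusted p = 6.5e-05) and then 0.72 (SE 0.12, adjusted p = 0.000643). Those of Hadhb were 0.47 (SE 0.13, adjusted p = 0.0103) and then 0.38 (SE 0.13, adjusted p = 0.036), where the latter was lost without any 1 of 22 °C mice 1, 2 and 4 or 6 °C mice 3 and 4 (adjusted p 0.0532 to 0.104) and with skeletal muscle markers in the fit (adjusted p = 0.0927). The former was lost without mice A and B (0.30, adjusted p = 0.0939).

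Hadha and Hadhb are read outwards from the same stretch of chromosome 5. In the RefSeq table (GRCm38.p6) their starts lie 273 bases apart, at 30154980 on the minus strand and 30155253 on the plus strand. Their windows of 250 bases before to 50 after the start share 228 bases. The gene spans given above are from GENCODE, where the outermost start of Hadha is 30155162, within the Hadhb window below. The window of Hadhb, chr5:30155003-30155302 on the plus strand, is shown because it holds most of the region that both genes share while their transcripts moved unequally; the capital letter marks the first transcribed base of Hadhb.
Hadhb: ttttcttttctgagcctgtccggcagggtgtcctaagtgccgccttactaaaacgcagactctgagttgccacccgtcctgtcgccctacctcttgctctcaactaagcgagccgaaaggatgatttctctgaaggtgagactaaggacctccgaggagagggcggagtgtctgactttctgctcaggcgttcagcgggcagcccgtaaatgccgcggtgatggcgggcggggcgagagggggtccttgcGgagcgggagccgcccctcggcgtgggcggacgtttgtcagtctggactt

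The separate enzymes for the later reactions did not follow the trifunctional protein. Hadh, the dehydrogenase for medium and short chains, rose from 1134 ± 135 to 1640.3 ± 182 CPM at 22 °C (log2 fold change 0.53, edgeR adjusted p = 0.0015) and stood at 1390.5 ± 86.2 CPM at 6 °C. Its call of 0.29 for 6 against 30 °C (adjusted p = 0.0327) was lost without any 1 of 30 °C mice A and B or 6 °C mice 1, 3 and 4 (adjusted p 0.0522 to 0.0894) and turned to -0.0196 under scaling to total counts, and its difference of -0.24 from 22 to 6 °C was called without 22 °C mouse 3 (-0.29, adjusted p = 0.0403). Echs1, the short-chain hydratase, averaged 669 ± 89.1, 1016 ± 94.5 and 886 ± 48.6 CPM and was higher in both cold groups than at 30 °C.

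Acaa2, a thiolase that cleaves the shortened chain, had the highest level per length of all members at 30 °C and was lowest at 6 °C. It stood at 2235, 2098, 2024 and 1597 CPM at 30 °C, 2408, 2710.0, 2087 and 2296 CPM at 22 °C, and 1514, 1460.5, 1613 and 1489.8 CPM at 6 °C. All 6 °C mice were below all 22 °C mice, and 30 °C mouse B lay among the 6 °C values. Acaa2 fell by 0.64 from 22 to 6 °C on the log2 scale (edgeR adjusted p = 0.00102) and was lower at 6 than at 30 °C (-0.39, adjusted p = 0.00983). The latter was -0.26 (edgeR adjusted p = 0.0831) once the trend in transcript length and GC content was removed. That removal also moved all genes by a median of 0.14. The Acaa2 difference of 0.26 at 22 °C against 30 °C (edgeR adjusted p = 0.079) was called without 30 °C mouse 1 or without 22 °C mouse 3 (adjusted p 0.0379 to 0.0434) and by DESeq2 (adjusted p = 0.0303).

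Hsd17b10 (chrX:152001845-152004442, plus strand), a dehydrogenase of isoleucine breakdown that is also a subunit of mitochondrial RNase P, fell the most from 22 to 6 °C among the members. It measured 128, 133, 141 and 115 CPM at 30 °C, 163, 190.4, 146 and 178 CPM at 22 °C, and 93.5, 84.3, 99.9 and 90.4 CPM at 6 °C. No temperature overlapped another, with 22 °C highest and 6 °C lowest. Hsd17b10 rose by 0.39 (SE 0.09, edgeR adjusted p = 0.00379) and then fell by 0.88 (SE 0.09, adjusted p = 3.24e-05) on the log2 scale.

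The electron transfer flavoprotein and its oxidoreductase moved apart. Etfa and Etfb encode the subunits of the soluble protein that collects electrons from the acyl-CoA dehydrogenases, and Etfdh encodes the inner-membrane enzyme that passes them to ubiquinone. Etfdh measured 484, 462, 472 and 385 CPM at 30 °C, 937, 812, 827 and 793 CPM at 22 °C, and 1086, 1152, 1315 and 1141 CPM at 6 °C. It rose at both steps without overlap, by 0.90 (SE 0.10, edgeR adjusted p = 2.62e-05) and 0.48 (SE 0.10, adjusted p = 0.00232) on the log2 scale.

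Etfb measured 1140.1, 1162, 1198 and 945 CPM at 30 °C, 1144, 1353, 1005 and 1236 CPM at 22 °C, and 702, 711, 741 and 712 CPM at 6 °C. All 6 °C mice lay below all others, and the 30 and 22 °C mice overlapped. Etfb fell by 0.73 from 22 to 6 °C (SE 0.10, edgeR adjusted p = 0.000245) and was not called at 22 against 30 °C (0.09, adjusted p = 0.496). Other gene models, Gm45233 and Mir7051, cover 58.2% of the Etfb exonic bases. Its partner Etfa, at 992 ± 96.0, 1157 ± 108 and 1093 ± 82.9 CPM, was not called in any pair of temperatures (differences of 0.22 for 22 against 30 °C, 0.14 for 6 against 30 °C, which turned to -0.17 under scaling to total counts, and -0.08 for 6 against 22 °C) in the edgeR fit of all libraries. The difference for 22 against 30 °C was called without 22 °C mouse 3 (0.27, adjusted p = 0.0312) and by DESeq2 (0.25, adjusted p = 0.0322), and the total-count fit called Etfa lower at 6 °C against 30 °C (adjusted p = 0.0413).

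The 3 auxiliary enzymes that handle double bonds all rose at 22 °C. Decr1, the dienoyl-CoA reductase, averaged 589 ± 86.7, 901 ± 46.9 and 1082 ± 77.4 CPM, with log2 differences of 0.61 (edgeR adjusted p = 0.000438) and then 0.26 (adjusted p = 0.0615). The latter was called in 8 of 27 alternatives. Among them were the edgeR fits without 30 °C mouse 1 or without mouse B (adjusted p 0.0271 to 0.032) and DESeq2 (adjusted p = 0.02). Eci1, an enoyl-CoA isomerase, measured 428 to 599 CPM at 30 °C, 628 to 866 at 22 °C and 469.6 to 570.5 at 6 °C, with all 22 °C mice above the rest. It rose by 0.47 and fell back by 0.54 on the log2 scale (edgeR adjusted p = 0.00683 and 0.00458). Eci2, a second isomerase found in mitochondria and peroxisomes, averaged 92.6 ± 5.41, 154 ± 10.1 and 143 ± 8.23 CPM and rose by 0.73 (adjusted p = 1.79e-05) with no called change afterwards (-0.11, adjusted p = 0.269).

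Echdc1 (ENSMUSG00000019883, chr10:29313166-29347469, plus strand), an ethylmalonyl-CoA decarboxylase that clears a by-product of acyl-CoA carboxylation in the cytosol, changed more than any other member. It stood at 23.9, 17.2, 13.9 and 13.3 CPM at 30 °C, 109, 78.7, 104 and 83.1 CPM at 22 °C, and 112, 115, 124 and 135 CPM at 6 °C, without overlap. It was 7.13-fold higher at 6 °C than at 30 °C (log2 fold change 2.83, SE 0.18, edgeR adjusted p = 2.51e-07), and most of this was present at 22 °C (2.46, SE 0.18, adjusted p = 3.94e-06). The further difference of 0.38 (edgeR adjusted p = 0.106) was called in 5 of 27 alternatives. Among them were the edgeR fits without 30 °C mouse 1 (0.38, adjusted p = 0.026) and of only the 8 libraries compared (0.37, adjusted p = 0.0268). Opposite-strand genes cover 86.4% of its exonic bases, among them Rnf146, which averaged 23.7, 26.0 and 28.4 CPM. Its hydratase-domain relatives Echdc2 and Echdc3 rose at 22 °C and fell from 22 to 6 °C. Echdc3 went from 60.1 ± 7.02 to 84.1 ± 2.36 and 57.6 ± 4.40 CPM. Echdc2 went from 27.1 ± 3.59 to 34.997 ± 5.57 and 21.9 ± 0.997 CPM. For Echdc2 the rise at 22 °C was lost without 30 °C mouse B or 22 °C mouse 3 (adjusted p 0.0568 to 0.0585), and its fall at 6 °C against 30 °C without any 1 of 30 °C mice 1, 2 and A or 6 °C mice 2, 3 and 4 (adjusted p 0.057 to 0.111).

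Both mitochondrial synthetases of the list rose at both steps. Acsf2, which activates medium-chain fatty acids, measured 32.4, 28.2, 28.2 and 24.3 CPM at 30 °C, 60.8, 52.5, 78.9 and 53.6 CPM at 22 °C, and 99.9, 103, 118 and 115 CPM at 6 °C. The temperatures did not overlap, and the total rise from 30 to 6 °C was 1.95 on the log2 scale (SE 0.13, edgeR adjusted p = 1.81e-07). Acsf3, the malonyl-CoA synthetase, averaged 77.1 ± 8.86, 139.6 ± 17.9 and 218 ± 18.3 CPM and rose by 0.86 and then 0.65 (edgeR adjusted p = 7.37e-05 and 0.000779).

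Over both steps, 9 members were called higher at both: Cpt2, Mlycd, Acad9, Acad11, Hadha, Hadhb, Etfdh, Acsf2 and Acsf3. A further 11 were higher at the first step with no call at the second (Acadl, Acadm, Acadvl, Acads, Acadsb, Acad8, Hadh, Echs1, Echdc1, Eci2 and Decr1), and 5 were higher and then lower (Acad10, Hsd17b10, Echdc2, Echdc3 and Eci1). Acaa2, Acad12 and Etfb were not called at the first step and lower at the second, Cpt1a was lower and then higher, and Cpt1b, Slc22a5 and Etfa were called at neither. The test of the difference of the steps, the second log2 fold change minus the first, called 19 members negative and 1 positive, where 15% and 14.3% of all tested genes were called in these directions. The median of this difference was -0.58 over the members and -0.04 over all tested genes. Echdc1 was the most negative (-2.08, SE 0.29, edgeR adjusted p = 0.000568), Cpt1a was the positive call (1.80, SE 0.38, adjusted p = 0.00487), and Mlycd (-0.09, adjusted p = 0.76), Hadhb (-0.08, adjusted p = 0.821), Hadha (-0.23, adjusted p = 0.432) and Acad11 (-0.23, adjusted p = 0.36) were among the members not called. The 2 steps share the 22 °C mice, so a high or low 22 °C group enters both with opposite sign.

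Several of these difference calls changed with single libraries. Those of Acad8 and Acadsb were lost without any 1 of 9 and of 7 libraries (adjusted p 0.0537 to 0.162 and 0.051 to 0.0986). Those of Acadl and Acad9 were lost without any 1 of 5 libraries each (adjusted p 0.0524 to 0.0842 and 0.0599 to 0.102), and that of Cpt2 without 22 °C mouse 1 (adjusted p = 0.0831). Acadvl without 30 °C mouse 1, Etfdh without 6 °C mouse 3 and Decr1 without 30 °C mouse 1 were called negative (adjusted p = 0.0472, 0.0453 and 0.036).

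**Figure D3:**
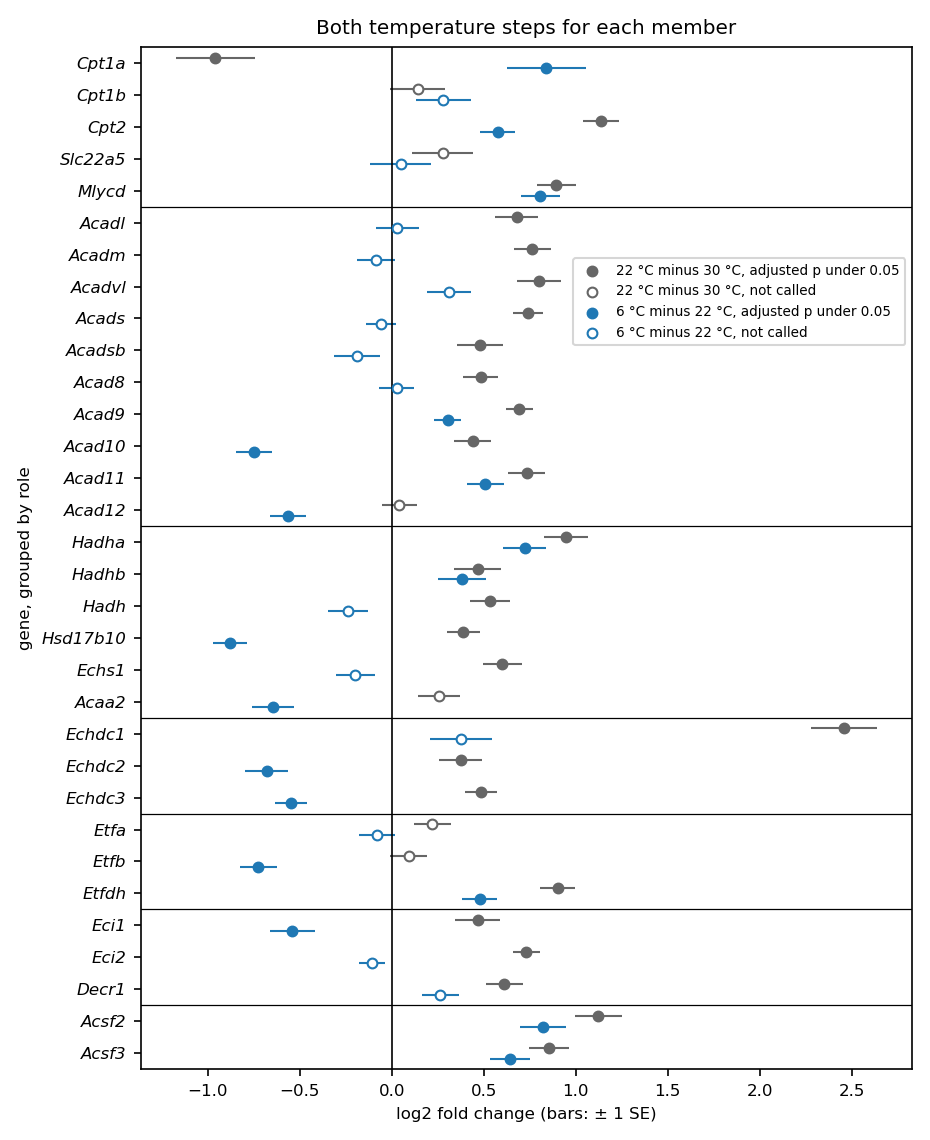
For each member the log2 fold change of 22 °C against 30 °C is in grey and that of 6 °C against 22 °C in blue, with bars of 1 SE and open points where the adjusted p is not under 0.05. Grey points lie right of 0 for 31 of the 32 members, Cpt1a being the exception, while the blue points spread to both sides.

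The second step varied with transcript length. Over the 32 members the Spearman correlation of the log2 fold change from 22 to 6 °C with transcript length was 0.53, and it was 0.11 over the 14749 tested genes with a length, given as a description across genes that share the same 8 libraries. With the trend in transcript length and GC content removed, 10 members were still called higher and 8 lower at this step. Members lower at 6 °C against 30 °C then numbered 3 in place of 6, without Acaa2, Acad10 and Echdc2 (edgeR adjusted p 0.0831, 0.432 and 0.34). The removal also moved the log2 fold changes of all genes at 6 °C against 30 °C by a median of 0.14. It called 4758 genes higher and 3470 lower in place of 3767 and 4677. How far the lost calls came from this general shift was not tested.

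Ratios of partner enzymes within a library do not depend on the scaling between libraries. No trend in transcript length or GC content was removed from them, however. Among partners that rose relative to the other in called comparisons, Hadha, Etfa, Acadvl and Eci2 have the longer transcript and Cpt2 the shorter. The part of transcript length in the ratios was not tested. Of 24 comparisons of 8 ratios, 16 had an adjusted p of 0.0429 (exact two-sided permutation test, raw p = 0.0286, the smallest that 4 against 4 mice can give, Benjamini-Hochberg adjusted over the 24). The ratio of Hadhb to Hadha, in CPM per kilobase of transcript, was 0.511 at 30 °C (range 0.498 to 0.538), 0.367 at 22 °C (0.327 to 0.444) and 0.290 at 6 °C (0.279 to 0.306). All 3 comparisons of this ratio were among the 16, with every colder mouse below every warmer mouse. The ratio of Etfb to Etfa was 1.75 (range 1.71 to 1.80), 1.59 (1.51 to 1.66) and 1.02 (0.950 to 1.07), and its 3 comparisons were likewise among the 16.

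The balance of chain lengths also differed. Acadl over Acadvl was 2.86 at 30 °C, 2.63 at 22 °C and 2.16 at 6 °C, Acadm over Acadvl 1.69, 1.65 and 1.25, and Acads over Acadvl 0.519, 0.496 and 0.383. Each was lower at 6 °C than at 30 and 22 °C in the exact permutation test, and none was called between 22 and 30 °C (adjusted p = 0.0722, 0.657 and 0.567 by the same exact test). Eci2 over Eci1 was 0.112, 0.134 and 0.180 and was higher at 6 °C than at either other temperature. Cpt2 over Cpt1b was 8.28, 16.5 and 20.4 and was higher in both cold groups than at 30 °C, whereas Cpt1b over Cpt1a, at 2.06, 4.29 and 2.89, was not called in any pair (exact permutation test, adjusted p 0.0722 to 0.281).

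**Figure D4:**
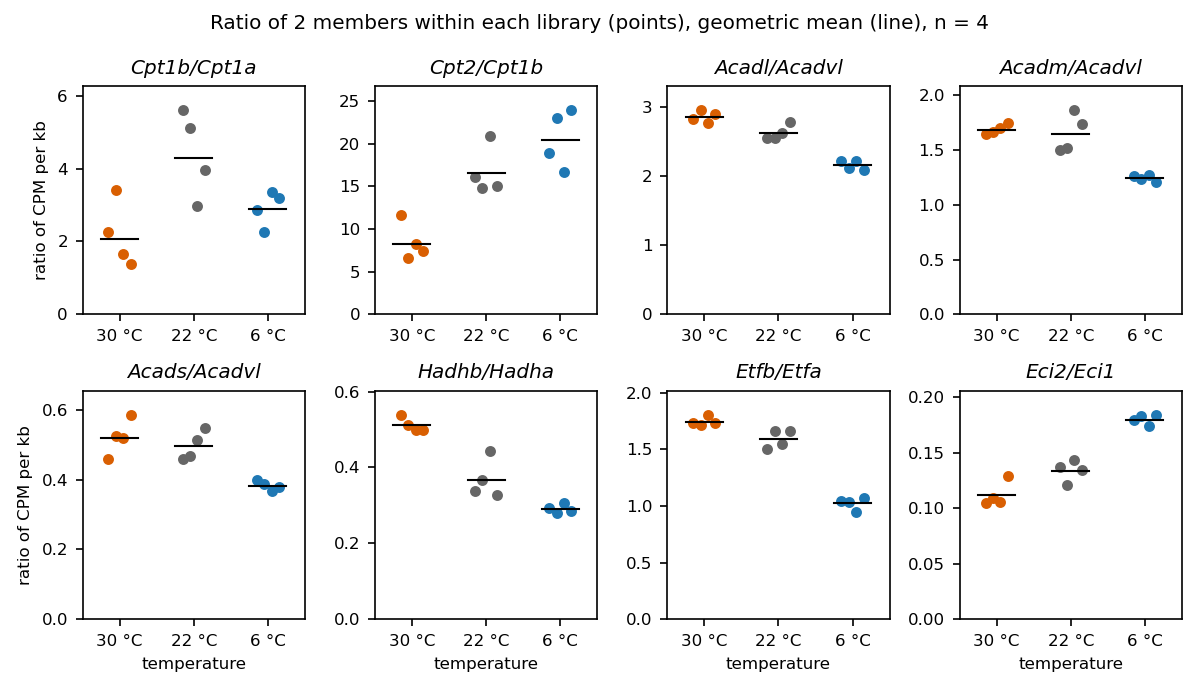
Each panel plots the ratio of 2 members in CPM per kilobase within every library (points) with the geometric mean of 4 mice (line), by temperature, on axes that start at 0. The Hadhb to Hadha ratio steps down from 0.511 to 0.290 and the Etfb to Etfa ratio drops between 22 and 6 °C, while the Cpt1b to Cpt1a ratio is scattered at every temperature.

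Per length, the members spanned a wide range of levels. At 30 °C Acaa2 was highest at 1312 CPM per kilobase, followed by Etfb at 1244 and Acadl at 1030, with spreads that overlapped. Cpt1a was lowest at 6.46 and Cpt1b stood at 12.8 CPM per kilobase, so by these counts the outer-membrane transferases were among the least abundant transcripts of the pathway at this temperature. Whether the exons that Cpt1b shares with Gm44502 lowered its count was not tested. At 6 °C Acadl was highest, and Hadha passed Etfb.

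**Figure D5:**
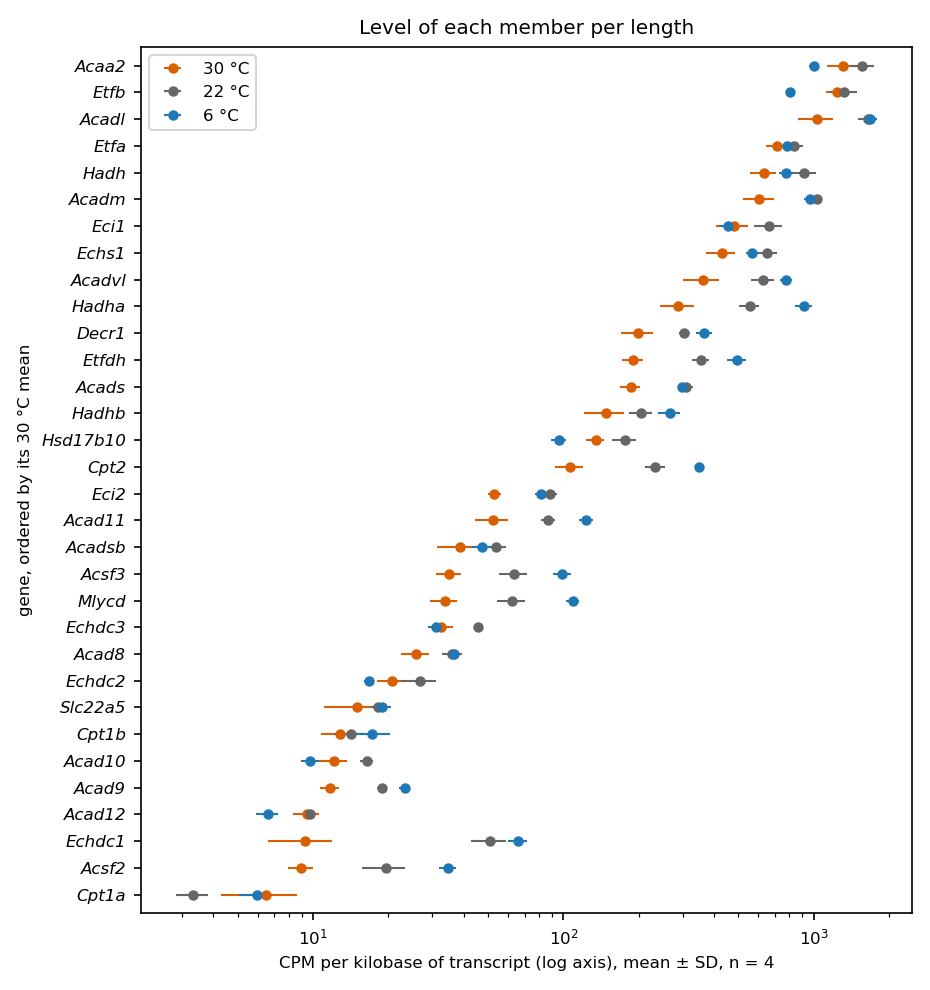
Points are the mean CPM per kilobase of transcript of each member at each temperature on a log axis, with bars of 1 SD over 4 mice, and genes ordered by their 30 °C mean. Acaa2, Etfb and Acadl lie at the top, and Cpt1a lies at the bottom with its 22 °C point apart to the left.

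Other steps of fat burning also held genes that rose at 22 °C. Their counts stand beside shares of all tested genes of 21.8% higher and 22.8% lower at 22 °C, 25.3% and 31.5% at 6 °C, both against 30 °C, and 16.9% and 17.4% from 22 to 6 °C. Of 9 tested acyl-CoA synthetases, which activate fatty acids before entry, 6 were higher and none lower at 22 °C against 30 °C, and 7 were higher and 2 lower at 6 °C, with median log2 fold changes of 0.66 and 0.99 (all tested genes -0.02 and -0.11). Acsl5, a long-chain synthetase, averaged 81.7, 431.5 and 1403 CPM at 30, 22 and 6 °C (log2 fold change 4.10 for 6 against 30 °C, SE 0.19, edgeR adjusted p = 2.53e-08), and Acss2, which activates acetate, 113.8, 661 and 616.5 CPM. Of 11 tested carnitine and import genes, 6 were higher and 1 lower at 22 °C, and 7 and 3 at 6 °C, with medians of 0.28 and 0.35. Slc25a20, the carrier that brings acylcarnitine through the inner membrane, rose by 0.99 and then 0.34 (edgeR adjusted p = 1.16e-05 and 0.0117), and Dbi, the acyl-CoA binding protein, rose by 1.59 at 22 °C (adjusted p = 1.92e-06).

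Of 17 peroxisomal beta-oxidation genes, 11 were higher and none lower at 22 °C, and 8 were higher and 4 lower from 22 to 6 °C, with medians of 0.61 and 0.23 on the log2 scale (all tested genes -0.02 and -0.03). Acaa1a, a peroxisomal thiolase, averaged 95.5, 153 and 87.3 CPM and fell by 0.81 at the second step (edgeR adjusted p = 4.45e-06), whereas Abcd3, a peroxisomal acyl-CoA transporter, rose by 0.94 and then 0.60 (adjusted p = 2.9e-05 and 0.000896). Of 23 regulators of fatty acid oxidation, 11 were higher and none lower at 22 °C, and 13 were higher and 2 lower at 6 °C, both against 30 °C, with medians of 0.29 and 0.74. At 22 °C 47.8% of these regulators were called in either direction, near the 44.6% of all tested genes. Among them Acacb, the acetyl-CoA carboxylase whose malonyl-CoA restrains the outer-membrane transferase, averaged 562, 1778 and 2599 CPM (log2 fold change 2.21 for 6 against 30 °C, SE 0.12, edgeR adjusted p = 5.31e-08). Esrra, an orphan nuclear receptor of mitochondrial genes, rose by 0.56 at 22 °C (adjusted p = 0.000417), and Prkaa1, a catalytic subunit of AMP-activated kinase, was not called at 22 °C (0.10, adjusted p = 0.347) and rose by 0.73 from 22 to 6 °C (adjusted p = 4.75e-05).

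Downstream, the TCA cycle and respiratory chain were higher throughout at 22 °C: 17 of 17 TCA cycle genes and 16 of 16 core respiratory chain genes were higher there than at 30 °C, with median log2 fold changes of 0.54 and 0.55. From 22 to 6 °C, 4 of the former were higher and none lower, and 1 of the latter was higher and 4 lower, with medians of 0.00 and -0.05. Dld, the shared dehydrogenase subunit of the oxo-acid complexes, averaged 634.6, 1085 and 1383 CPM, and Cox6c, a subunit of cytochrome oxidase, 352, 598 and 369.6 CPM. Of 11 genes of ketone and propionate metabolism, 9 were higher and 1 lower at 22 °C and 6 were higher and none lower at 6 °C, both against 30 °C, the latter 54.5% called beside 56.8% of all tested genes, and 4 were higher and 3 lower from 22 to 6 °C. Among them was Pcca, a subunit of propionyl-CoA carboxylase, at 211, 358 and 599.5 CPM. Of 10 genes of cofactor supply, 7 were higher and 1 lower at 22 °C, among them Slc25a51, the mitochondrial NAD carrier, at 231, 412 and 656 CPM.

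The start regions of the members were read for motifs in the RefSeq table, where 28 of the 32 members had a window. The palindromic motif known for the factor NRF1, whose letters are the capitals of the Acad10 window, occurred in 3 of 29 member windows (Acad10, Acad12 and Etfdh), or 10.3%, and in 0.971% of all 32851 windows. The windows of the relatives Acad10 and Acad12 hold similar letters around the motif, so their matches are not independent of each other. The motif CCGGAAGT, known for ETS factors such as GABP and, like the rest, searched on both strands, was in 2 (Cpt2 and Echdc1), or 6.90%, and in 3.89% of all windows. The nuclear receptor core AGGTCA was in 5 (Acadm, Acadvl, Cpt1a, Echdc3 and Echs1), or 17.2%, and in 16.3% of all windows; TGACGTCA was in none, and in 1.79% of all windows. The estrogen-related receptor element was also searched and was in no member window, and in 0.423% of all windows. A direct repeat of the nuclear receptor core, 1 base apart, was exact in no member window and in 0.0396% of all windows. With up to 2 mismatches this repeat was in 2 member windows (Echs1 and Etfa), or 6.90%, and in 3.86% of all windows. All these matches are descriptions of letters in the windows. Windows of Acad10 (chr5:121660461-121660760), Acad12 (chr5:121618889-121619188) and Cpt2 (chr4:107923540-107923839), all on the minus strand and 5′ to 3′, are shown because the first 2 belong to neighbouring relatives that both fell from 22 to 6 °C and the third to a member that rose at both steps; capitals mark the NRF1 motif in Acad10 and Acad12 and the ETS motif in Cpt2.
Acad10: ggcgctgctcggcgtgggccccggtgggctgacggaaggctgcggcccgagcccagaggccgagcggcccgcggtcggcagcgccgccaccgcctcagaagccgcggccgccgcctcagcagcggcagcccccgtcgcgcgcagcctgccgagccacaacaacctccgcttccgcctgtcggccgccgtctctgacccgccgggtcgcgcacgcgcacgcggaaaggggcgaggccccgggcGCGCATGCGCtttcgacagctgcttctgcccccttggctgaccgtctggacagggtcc
Acad12: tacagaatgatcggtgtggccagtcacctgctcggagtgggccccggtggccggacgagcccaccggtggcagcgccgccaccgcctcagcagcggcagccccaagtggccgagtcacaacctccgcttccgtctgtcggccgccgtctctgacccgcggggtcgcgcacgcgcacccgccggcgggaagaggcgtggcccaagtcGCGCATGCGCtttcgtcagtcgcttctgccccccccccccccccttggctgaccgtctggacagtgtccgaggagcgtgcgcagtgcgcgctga
Cpt2: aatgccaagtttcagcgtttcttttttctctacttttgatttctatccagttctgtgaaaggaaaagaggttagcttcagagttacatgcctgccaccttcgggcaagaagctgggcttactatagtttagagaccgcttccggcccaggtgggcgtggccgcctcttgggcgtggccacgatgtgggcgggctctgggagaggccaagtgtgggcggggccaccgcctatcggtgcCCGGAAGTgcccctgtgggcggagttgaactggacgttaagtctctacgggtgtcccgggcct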

How the data were processed

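No source used here gives the counting program, the annotation release or the strandedness. Tools named, per the submitters' processing notes and with no roles given, were edgeR 3.14.0, STAR 2.4.2a and FastQC 0.10.1, with GRCm38 and mm10 as builds. The authors deposited raw read counts per Ensembl gene, 1 column per library and 1 library per mouse. A numbered mouse was matched to 10 columns; 2 more shared the letter of the 30 °C titles, though no title there has their numbers, and were assigned to that group only (mice A and B). At the smallest total, 1 CPM is about 18.3 counts. Libraries of 1 temperature differed beyond counting noise (lowest chi-square per degree of freedom 20.9), so none was counted as a copy.

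Counts were fitted with edgeR 4.0.16 in R 4.3.3: filterByExpr, TMM, glmQLFit (robust) with 1 factor of 3 temperatures over all 12 libraries, glmQLFTest two-sided, Benjamini-Hochberg over 14870 genes, called at an adjusted p under 0.05. SE is the log2 fold change over the root of F. CPM per kilobase used the length of the GENCODE principal transcript. The 8 ratios were compared by exact permutation. Scripts were tested on simulated data. All 32 members are named, and from each pathway list the 3 genes with the smallest p over temperatures (the text gives some). Members and lists were chosen with earlier results of these data known. Alternatives were other scalings, filters and thresholds, DESeq2 1.42.0, limma 3.58.1 voom, no robust estimation, a block of mouse number, a muscle covariate, only the 8 libraries compared, removal of single libraries or of mice A and B, and removal of length and GC trends. Promoter windows came from RefSeq on GRCm38.p6.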

Additional observations from a re-analysis of the deposited data

Results flagged for a closer look

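In 11 of the 96 combinations of a member and a temperature, 1 of the 4 mice stood apart, in that its gap to the nearest mouse, divided by the range of the group, exceeded Dixon's critical value for 4 samples. Chance gives such a flag in about 1 of 20 groups. At 30 °C, mouse B was the lowest for Acad9 (gap share 0.848), Acad12 (0.873), Echs1 (0.858), Echdc3 (0.884) and Etfa (0.834), and mouse A was the lowest for Slc22a5 (0.880). At 22 °C, mouse 3, the most deeply sequenced library, was the highest for Echdc2 (0.917) and the lowest for Eci2 (0.848), mouse 2 was the lowest for Acad11 (0.934), and mouse 4 was the highest for Slc22a5 (0.984). At 6 °C, mouse 2 was the lowest for Acad10 (0.863).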

How the results depend on the processing

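Counts of called members stayed within 1.5 times of those reported under every alternative scaling, filter and fit, with these exceptions. A threshold of at least 2-fold left 3 higher and 0 lower at 22 °C against 30 °C, 9 and 0 at 6 °C against 30 °C, 0 and 0 at 6 °C against 22 °C, and 6 negative differences of the steps. With mouse number as a replicate block (10 matched libraries) 0 were lower at 22 °C against 30 °C, 18 higher, and 12 differences of the steps were negative. With the length and GC trend removed, 3 were lower at 6 °C against 30 °C, where this removal also moved all genes by a median of 0.14. The mouse numbers do not pair the samples: same-numbered libraries correlated at -0.152 to 0.230, and 1 of 8 libraries at 22 and 6 °C correlated best with its own number. Without mice A and B, 22 members were higher and 1 lower at 22 °C against 30 °C, 18 and 6 at 6 °C against 30 °C, and 13 and 8 at 6 °C against 22 °C; leaving out 22 °C mouse 3 as well, chosen after seeing the data like the removal of the length and GC trend, the counts were 22 and 1, 18 and 6, and 13 and 10. Scaling to total counts moved the median of all genes by -0.32 (6 against 30 °C), -0.26 (22 against 30 °C) and -0.06 (6 against 22 °C). With this scaling the median log2 fold changes of the members were 0.25, 0.31 and -0.03 in the same order, in place of 0.57, 0.57 and 0.03. Over all genes the total-count scaling called 1939 higher and 7888 lower at 6 °C against 30 °C in place of 3767 and 4677, and 1419 and 6224 at 22 °C against 30 °C in place of 3248 and 3386. Under it Hadh (-0.0196) and Etfa (-0.17, edgeR adjusted p = 0.0413) changed sign at 6 °C against 30 °C. At 6 °C the calls of Hadh, Cpt1b and Echs1 and at 22 °C, both against 30 °C, the 6 calls of Acadsb, Acad10, Hadhb, Hsd17b10, Echdc2 and Eci1 were lost, and Echdc3 (-0.37) and Eci1 (-0.38) were newly called lower at 6 °C against 30 °C (adjusted p = 0.000535 and 0.0036). The cause was not tested. For the ratios, leaving out a mouse leaves 3 against 4 in the comparisons of its temperature, whose smallest exact permutation p is 0.0571. The other pair of temperatures stays at 4 against 4, with a smallest p of 0.0286 in the same test. Too few comparisons remain there for an adjusted p under 0.05. So 0 of 24 could be called (lowest 0, highest 0), and likewise 0 without mice A and B, which shows nothing about stability. Depth limits the least abundant members, such as Cpt1a and Echdc2, more than the others.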
